A study of Mus musculus with 10 samples.

Results

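Skeletal muscle was examined for its collagens and the fibroblast-derived genes of its extracellular matrix. The members were every gene on the array whose symbol in the platform annotation names a collagen chain (*Col*, a number, *a* and a number), together with *Dcn*, *Lum*, *Fn1*, *Postn*, *Sparc*, *Tgfb1*, *Tgfb2*, *Timp1*, *Timp2*, *Mmp2* and *Lox*. These were 53 genes, 42 collagens and 11 matrix genes, among 19505 genes with a symbol and 22206 probe sets in all. The set also takes in *Pdgfra*, but neither it nor *Col7a1* or *Col12a1* was tied to a probe set by that annotation, and they were not analysed here. Each gene had 1 probe set.

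GTN (gastrocnemius) muscle was taken from 5 mTKO and 5 ctrl males at postnatal day 60, kept on standard chow, and each array held the RNA of 1 mouse. The mTKO mice were Txnrd2 fl/fl with ACTA1-Cre +/Cre, and the ctrl mice were Txnrd2 fl/fl without Cre, so the floxed alleles and the C57BL/6N background were common to both genotypes. Cre was driven by the human *ACTA1* promoter, which is active in myofibers and not in satellite cells, and the fibroblasts that make most of the matrix are therefore not the cells in which the gene is removed. No mouse with Cre alone was among the arrays. Expression is given as the log2 signal of a probe set on Affymetrix Clariom S mouse arrays, and a difference is mTKO minus ctrl on the log2 scale, with limma's standard error (SE) and a p adjusted (Benjamini-Hochberg) across the whole array. The strength of probes differs, so levels of different genes are not ranked against each other.

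Collagens are secreted as triple helices. Fibrillar collagens (types I, III and V) build the load-bearing fibrils of tendon and of the sheets around muscle bundles, type IV collagen forms the net of the basement membrane around each fiber and capillary, and type VI collagen makes beaded filaments that link this net to the interstitial matrix. FACIT collagens sit on the surface of fibrils, and small proteoglycans such as decorin and lumican control how thick fibrils grow. In muscle much of this matrix comes from fibro-adipogenic progenitors, and it accumulates when fibers degenerate, which makes these genes a common readout of fibrosis.

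*Txnrd2*, the targeted gene, lay between 7.51 and 7.96 in mTKO arrays, against 8.47 to 9.08 in ctrl arrays, without overlap. Its difference was -0.998 (SE 0.1623), and it did not pass the adjusted test in limma (adjusted p = 0.1181). The 12 myofibre markers averaged 18.89 to 18.93 per array in mTKO and 18.93 to 18.97 in ctrl, far above the array medians of 6.06 to 6.14. One array stood apart in the matrix genes. mTKO replicate 4 was the highest of the 10 arrays for 21 of the 53 members (39.6%), against 12.3% of all probe sets, and for 19 of the 33 members with a mean signal of at least 6 (57.6%), against 12.5% of all such probe sets. For the 20 dimmer members, it was the highest array for 2 (10.0%), against 12.1% of the dimmer probe sets. Its median deviation from the ctrl mean was 0.37 over all members, 0.77 over the fibrillar collagens and 0.62 over the matrix genes. mTKO replicate 2 lay at the other end, with a median deviation of -0.23 over all members and -0.36 over the fibrillar collagens. It was the lowest array for 10 of the 53 members, a larger share than its 10.4% of all probe sets. ctrl replicate 3 was the lowest array for 11 of the 53 members, also a larger share than its 9.30% of all probe sets, with a median deviation of -0.12 over all members. Values are therefore given with and without mTKO replicate 4. Ranges over each array left out in turn are added for *Col1a1*, *Col1a2*, the fibrillar collagens and all members.

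Of the 53 members, 0 passed an adjusted p under 0.05 in limma (adjusted p between 0.765 and 1), against 0.0045% of all probe sets. The deleted gene *Txnrd2* did not pass this test either, so the count does not show that the members were unchanged. At an unadjusted limma p under 0.05, 3 of the 53 members were higher in mTKO, *Postn*, *Timp1* and *Col4a3*, where 3.10% of all probe sets were higher. In the same fit 0 were lower, where 3.26% of all probe sets were lower. In 0 members did the genotypes separate completely upward and in 0 downward, against 0.495% and 0.527% of all probe sets. By the methods' t-test, 0 members had P under 0.05 and a fold change above 2, against 0.0585% of all probe sets. The differences of 27 members were positive and those of 24 negative, with a median of 0.01 beside 0.00 over all probe sets. Without mTKO replicate 4 the signs shifted to 17 positive and 36 negative, with a median of -0.10 beside 0.00 over all probe sets. That array was singled out for its high values in these same members, so a downward shift is built into the choice. The values over all probe sets carry no such choice. With each array left out in turn, the median over the members ran between -0.10 and 0.10, so it moved in both directions. Whole muscle was measured, so fewer cells of a type and less RNA per cell cannot be told apart.

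**Figure D1:**
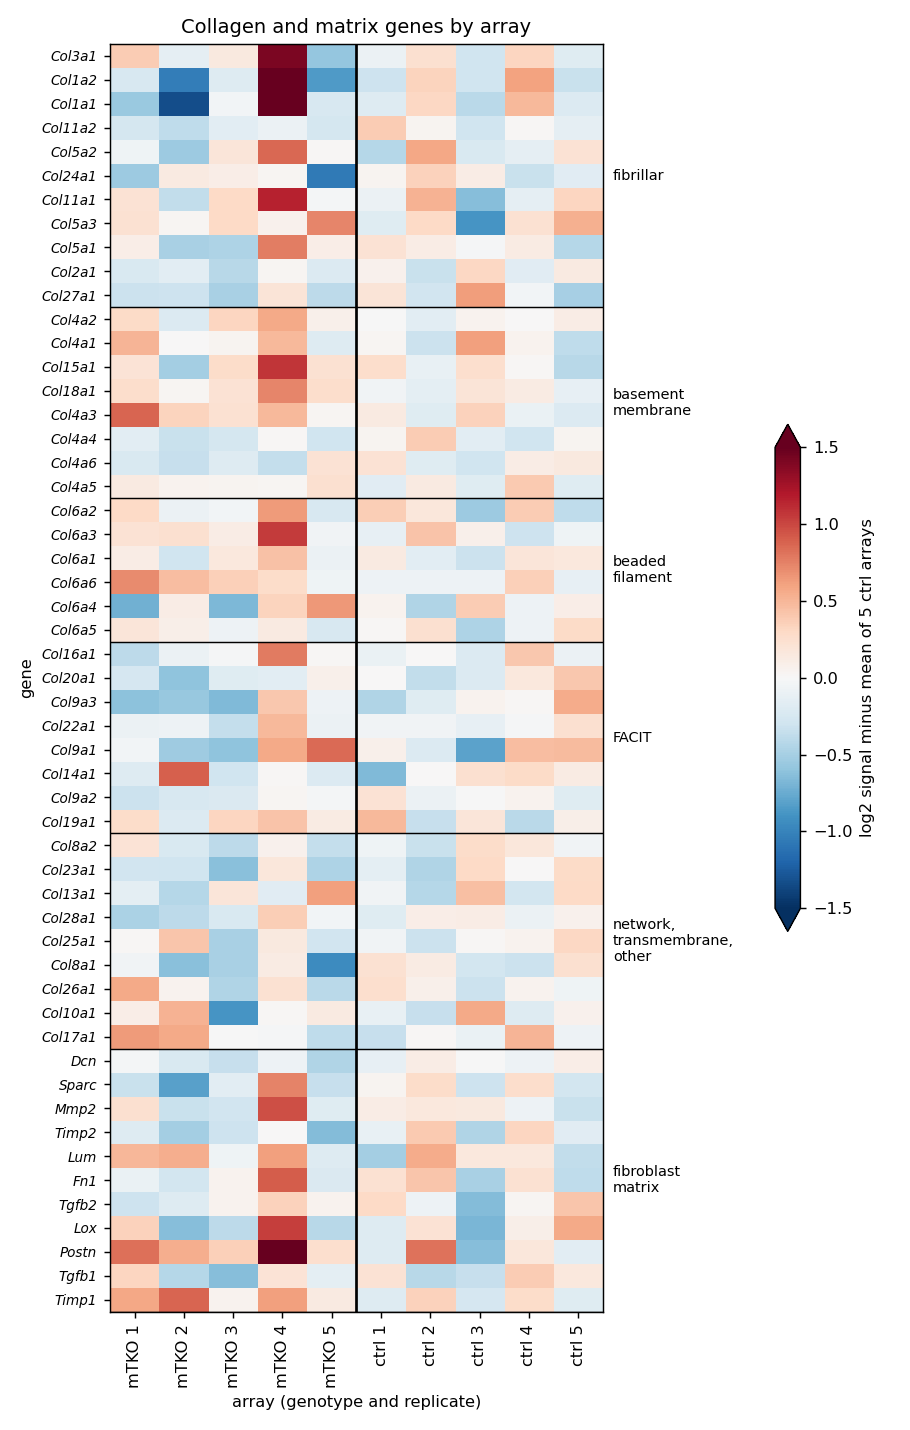
Log2 signal of each of the 53 members (rows, grouped by class and ordered by mean signal) in each array (columns, mTKO replicates 1 to 5 left of ctrl replicates 1 to 5), drawn as the difference from the mean of the 5 ctrl arrays. Red is higher and blue is lower, and the colors stop at 1.5. The column of mTKO replicate 4 is red for most fibrillar and matrix genes, where mTKO replicate 2 is mostly blue.

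The promoters of 40 of the 53 members had an entry in the RefSeq table of start sites (GRCm38.p6), with 44 windows. Those of *Col1a2*, *Col3a1* and *Col4a2* are shown because their genes belong to the collagen chains compared across arrays below, and the *Col4a2* stretch lies just before a start that the neighbouring *Col4a1* overlaps on the opposite strand. Capitals mark matches to 3 motifs, searched on both strands of the 250 bases before each start. The first is the CCAAT box, to which the factor NF-Y binds. The second is the GC box, spelled GGGCGG and bound by factors of the Sp family. The third is the TATA box in the spelling TATAAA, from which the general transcription machinery sets the start. The sequences of *Col1a2* (chr6:4505368-4505617, plus strand), *Col3a1* (chr1:45311288-45311537, plus strand) and part of that of *Col4a2* (chr8:11312768-11312797, plus strand) read as follows.
Col1a2: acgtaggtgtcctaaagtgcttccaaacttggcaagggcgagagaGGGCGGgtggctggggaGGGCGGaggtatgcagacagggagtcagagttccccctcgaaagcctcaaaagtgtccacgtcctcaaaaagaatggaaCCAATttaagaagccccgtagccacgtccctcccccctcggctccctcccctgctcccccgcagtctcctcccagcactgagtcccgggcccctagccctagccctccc
Col3a1: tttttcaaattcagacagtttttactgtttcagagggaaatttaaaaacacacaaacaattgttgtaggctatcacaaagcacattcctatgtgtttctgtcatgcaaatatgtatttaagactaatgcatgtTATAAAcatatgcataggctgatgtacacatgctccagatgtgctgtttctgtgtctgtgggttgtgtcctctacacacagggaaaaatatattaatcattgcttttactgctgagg
Col4a2: gctccCCAATttgttggcgctgccccctcc
In *Col1a2*, matches to the GC box began at positions -205 and -188 and a match to the CCAAT box at -109 from the annotated start. In *Col3a1* a TATA box match began at -117, and in *Col4a2* a CCAAT match began at -32. *Col4a1* and *Col4a2* stand head to head on chromosome 8, with annotated starts at 11312826 (minus strand) and 11312805 (plus strand), 21 bases apart and reading across each other, so the *Col4a2* stretch shown lies inside the annotated beginning of *Col4a1*. The CCAAT box was found in 15 of the 44 member windows (34.1%) and in 33.8% of all 32851 windows, the GC box in 24 (54.5%) against 32.7%, and the TATA box in 7 (15.9%) against 12.4%. A match of letters is a description and not a binding site.

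The main fibrillar collagens spread widely among mTKO arrays, and none of them passed the test between genotypes. *Col1a1*, the alpha 1 chain of type I collagen, had a log2 signal of 11.33, 10.56, 11.85, 14.06 and 11.65 in mTKO replicates 1 to 5, against 11.70, 12.20, 11.49, 12.38 and 11.68 in ctrl replicates 1 to 5. mTKO replicate 4 was far above every ctrl array, replicates 1 and 2 were below every ctrl array, and the remaining mTKO arrays lay within the ctrl range. The mean was 11.89 ± 1.31 in mTKO and 11.89 ± 0.38 in ctrl (SD, n = 5 each), a difference of 0.00 (SE 0.46, 95% interval -0.97 to 0.97, limma adjusted p = 1.00). With that replicate left out the difference was -0.54 (SE 0.26, limma adjusted p = 0.829). Over each array left out in turn it ran between -0.54 and 0.33.

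*Col1a2* encodes the alpha 2 chain that joins *Col1a1* in type I collagen. It had 12.35, 11.56, 12.40, 14.34 and 11.74 in mTKO replicates 1 to 5, against 12.28, 12.93, 12.29, 13.20 and 12.26 in ctrl replicates 1 to 5. Again mTKO replicate 4 was the highest of all arrays, while mTKO replicates 2 and 5 were below every ctrl array. The difference was -0.11 (SE 0.40, limma adjusted p = 0.981), and -0.58 (SE 0.25, adjusted p = 0.821) without mTKO replicate 4. Over each array left out in turn it ran between -0.58 and 0.12.

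*Col3a1* encodes type III collagen, the thin-fibril collagen of the endomysium. It had 13.16, 12.64, 12.92, 14.19 and 12.20 in mTKO replicates 1 to 5, against 12.69, 13.02, 12.48, 13.10 and 12.60 in ctrl replicates 1 to 5. The ctrl arrays lay inside the mTKO range, which ran from replicate 5 to replicate 4. The difference was 0.24 (SE 0.28, limma adjusted p = 0.928), and -0.05 without mTKO replicate 4. Over the 11 fibrillar collagens, differences ran between -0.27 and 0.27, 5 positive and 5 negative, with a median of 0.00 and limma adjusted p of 0.854 or above. Without mTKO replicate 4 the median was -0.25, with 2 positive and 9 negative. Over each array left out in turn the median ran between -0.25 and 0.13. Of the 11, 5 had a mean signal under 6, below the median of all probe sets, where an array reports little on change.

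**Figure D2:**
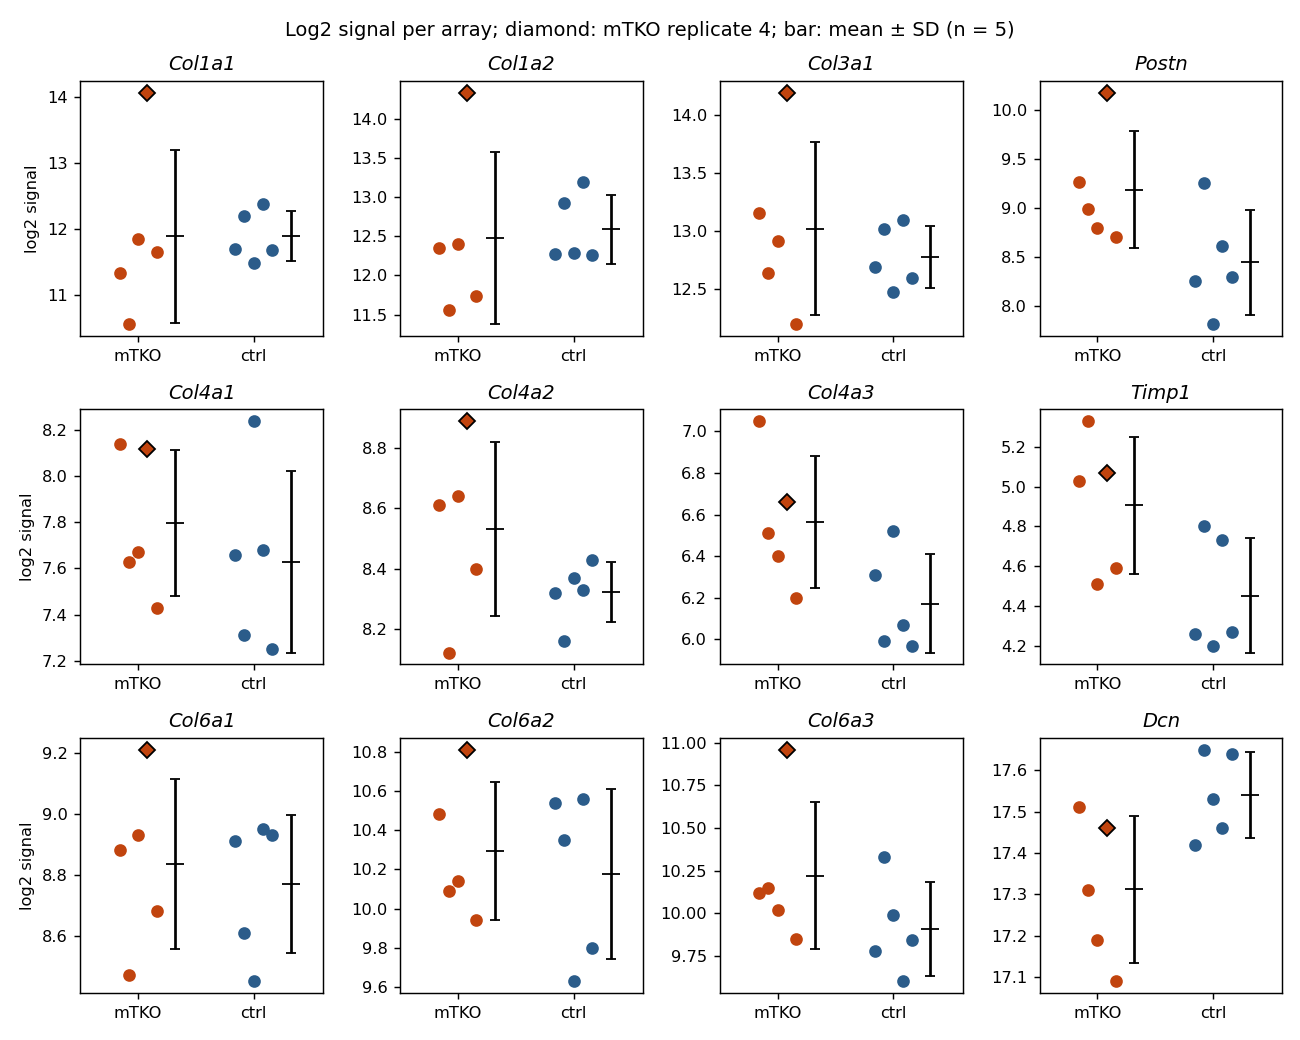
Log2 signal (vertical axes, each with its own scale) of 12 collagen and matrix genes in the 5 mTKO arrays (left in each panel) and the 5 ctrl arrays (right). Points are arrays, the diamond is mTKO replicate 4, and bars give mean ± SD (n = 5). For *Col1a1*, *Col1a2* and *Col3a1* the diamond is above every other array, at 14.06, 14.34 and 14.19.

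Basement membrane collagens had a positive difference in 6 of 8 members, with and without mTKO replicate 4, and 0 of them passed the adjusted test. *Col4a1* encodes the alpha 1 chain of type IV collagen, which pairs with the *Col4a2* chain in all basement membranes. Its signal was 8.14, 7.63, 7.67, 8.12 and 7.43 in mTKO replicates 1 to 5, against 7.66, 7.31, 8.24, 7.68 and 7.25 in ctrl replicates 1 to 5. The highest array was ctrl replicate 3 and the groups overlapped almost fully, with a difference of 0.17 (SE 0.21, limma adjusted p = 0.930), and 0.09 without mTKO replicate 4. *Col4a2* had 8.61, 8.12, 8.64, 8.89 and 8.40 in mTKO replicates 1 to 5, against 8.32, 8.16, 8.37, 8.33 and 8.43 in ctrl replicates 1 to 5. mTKO replicates 1, 3 and 4 were above every ctrl array, while mTKO replicate 2 was below every ctrl array. The difference was 0.21 (SE 0.16, limma adjusted p = 0.871), and 0.12 without mTKO replicate 4.

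*Col4a3* encodes a type IV chain best known from the basement membranes of kidney and lung. It had 7.05, 6.51, 6.40, 6.66 and 6.20 in mTKO replicates 1 to 5, against 6.31, 5.99, 6.52, 6.07 and 5.97 in ctrl replicates 1 to 5. mTKO replicates 1 and 4 were above every ctrl array, and the other mTKO arrays were within the ctrl range, close to the median of all probe sets. The mean was 6.56 ± 0.32 in mTKO and 6.17 ± 0.24 in ctrl (SD, n = 5 each), a difference of 0.39 (SE 0.18). Its unadjusted p was 0.0467 and its adjusted p 0.783 in limma, and a two-sided exact permutation test gave p = 0.0556, where the smallest p that 5 arrays against 5 allow is 0.00794. Without mTKO replicate 4 the difference was 0.37 at an unadjusted limma p of 0.0816. The partners of *Col4a3* in its trimer, *Col4a4* and *Col4a5*, were dim and are named after their values were seen. *Col4a4* averaged 5.18 ± 0.14 in mTKO and 5.38 ± 0.26 in ctrl, and *Col4a5* averaged 4.22 ± 0.09 in mTKO and 4.12 ± 0.26 in ctrl (SD, n = 5 each). Over the 8 basement membrane collagens the differences ran between -0.21 and 0.39, with a median of 0.19 with all arrays and 0.10 without mTKO replicate 4.

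Type VI collagen, whose chains are mutated in human Bethlem and Ullrich muscle disease, had differences between -0.03 and 0.13 in its main chains once mTKO replicate 4 was set aside. *Col6a1* had 8.88, 8.47, 8.93, 9.21 and 8.68 in mTKO replicates 1 to 5, against 8.91, 8.61, 8.45, 8.95 and 8.93 in ctrl replicates 1 to 5. The groups overlapped over nearly their whole range, and the difference was 0.06 (SE 0.17, limma adjusted p = 0.976) with all arrays and -0.03 without mTKO replicate 4. *Col6a2* had 10.48, 10.09, 10.14, 10.81 and 9.94 in mTKO replicates 1 to 5, against 10.54, 10.35, 9.63, 10.56 and 9.80 in ctrl replicates 1 to 5. mTKO replicate 4 was the highest array and ctrl replicate 3 the lowest, with a difference of 0.12 (SE 0.22, limma adjusted p = 0.967), and -0.01 without mTKO replicate 4. *Col6a3*, the largest chain of the trimer, had 10.12, 10.15, 10.02, 10.96 and 9.85 in mTKO replicates 1 to 5, against 9.78, 10.33, 9.99, 9.60 and 9.84 in ctrl replicates 1 to 5. Apart from mTKO replicate 4, all mTKO arrays were within the ctrl range. The difference was 0.31 (SE 0.21, limma adjusted p = 0.853), and 0.13 without mTKO replicate 4. The median of the 6 beaded filament collagens was 0.09 with all arrays and -0.01 without mTKO replicate 4.

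Among the 8 FACIT collagens, *Col16a1*, a fibril-associated chain, had 8.72, 9.02, 9.09, 9.89 and 9.13 in mTKO replicates 1 to 5, against 9.01, 9.11, 8.90, 9.51 and 9.02 in ctrl replicates 1 to 5. mTKO arrays were both the highest (replicate 4) and the lowest (replicate 1), and the difference was 0.06 (SE 0.20, limma adjusted p = 0.981), and -0.12 without mTKO replicate 4. FACIT differences ran between -0.30 and 0.19, with a median of 0.01, and -0.14 without mTKO replicate 4. Among the 9 network, transmembrane and other collagens, *Col8a2*, a short-chain network collagen, had 8.86, 8.42, 8.26, 8.72 and 8.30 in mTKO replicates 1 to 5, against 8.59, 8.32, 8.93, 8.82 and 8.60 in ctrl replicates 1 to 5. The groups overlapped, with the highest array in ctrl and the lowest in mTKO, and the difference was -0.14 (SE 0.17, limma adjusted p = 0.931), and -0.19 without mTKO replicate 4. Differences of these 9 ran between -0.40 and 0.16, with a median of -0.04 (2 positive, 6 negative), and -0.09 (2 positive, 7 negative) without mTKO replicate 4, and 8 of the 17 genes in both classes had a mean signal under 6.

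Among the fibroblast matrix genes, *Postn* had the largest difference of all 53 members. It encodes periostin, a matricellular protein that activated fibroblasts secrete and that binds type I collagen. Its signal was 9.27, 8.99, 8.80, 10.18 and 8.70 in mTKO replicates 1 to 5, against 8.25, 9.26, 7.81, 8.61 and 8.29 in ctrl replicates 1 to 5. Every mTKO array was above 4 of the 5 ctrl arrays, and ctrl replicate 2, at 9.26, overlapped with the mTKO group. The mean was 9.19 ± 0.60 in mTKO and 8.44 ± 0.54 in ctrl (SD, n = 5 each), a difference of 0.74 (SE 0.29, 95% interval 0.13 to 1.36), or 1.67-fold. The unadjusted p was 0.0204 and the adjusted p 0.765 in limma, and the two-sided exact permutation p was 0.0714. Without mTKO replicate 4 the difference was 0.50 (SE 0.25) at an unadjusted limma p of 0.0648.

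*Timp1* encodes a secreted inhibitor of matrix metalloproteinases. It had 5.03, 5.33, 4.51, 5.07 and 4.59 in mTKO replicates 1 to 5, against 4.26, 4.80, 4.20, 4.73 and 4.27 in ctrl replicates 1 to 5. mTKO replicates 1, 2 and 4 were above every ctrl array, and mTKO replicates 3 and 5 lay within the ctrl range, with all arrays below the median of all probe sets. *Timp1* thus had a difference of 0.45 (SE 0.19), with an unadjusted p of 0.0327 and an adjusted p of 0.783 in limma and a two-sided exact permutation p of 0.0476. Leaving out mTKO replicate 4 gave 0.41 at an unadjusted limma p of 0.0673. *Timp2*, a related inhibitor that also takes part in activating MMP2, had 12.38, 12.07, 12.26, 12.58 and 11.92 in mTKO replicates 1 to 5, against 12.47, 12.97, 12.13, 12.90 and 12.41 in ctrl replicates 1 to 5. The highest arrays were ctrl replicates 2 and 4 and the lowest mTKO replicate 5, with a difference of -0.33 (SE 0.19, limma adjusted p = 0.840), and -0.42 without mTKO replicate 4. *Mmp2*, the gelatinase that degrades denatured and basement membrane collagen, had 12.77, 12.20, 12.25, 13.50 and 12.35 in mTKO replicates 1 to 5, against 12.64, 12.69, 12.68, 12.46 and 12.20 in ctrl replicates 1 to 5. mTKO replicate 4 was again the highest array, and the difference was 0.08 (SE 0.23, limma adjusted p = 0.977), and -0.14 without it.

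The proteoglycans *Dcn* and *Lum* lay on opposite sides of 0. *Dcn* encodes decorin, which binds fibrils and TGF-beta, and had 17.51, 17.31, 17.19, 17.46 and 17.09 in mTKO replicates 1 to 5, against 17.42, 17.65, 17.53, 17.46 and 17.64 in ctrl replicates 1 to 5. mTKO replicates 2, 3 and 5 were below every ctrl array and the other mTKO arrays within the ctrl range. The difference was -0.23 (SE 0.14, limma adjusted p = 0.852, two-sided exact permutation p = 0.0556), and -0.27 without mTKO replicate 4. By the methods' t-test its P was 0.0378. *Lum* encodes lumican, a keratan sulfate proteoglycan of fibrils, and had 12.43, 12.48, 11.86, 12.55 and 11.74 in mTKO replicates 1 to 5, against 11.42, 12.49, 12.09, 12.09 and 11.56 in ctrl replicates 1 to 5. Its genotypes overlapped through most of their range, with a difference of 0.28 (SE 0.23, limma adjusted p = 0.876), and 0.20 without mTKO replicate 4.

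*Fn1* encodes fibronectin, onto which collagen is assembled, and had 11.20, 11.03, 11.35, 12.21 and 11.09 in mTKO replicates 1 to 5, against 11.53, 11.72, 10.81, 11.53 and 10.92 in ctrl replicates 1 to 5. mTKO replicate 4 was above all other arrays, and the difference was 0.07 (SE 0.24, limma adjusted p = 0.980), and -0.13 without it. *Sparc* encodes osteonectin, a collagen-binding protein, and had 16.45, 15.97, 16.62, 17.53 and 16.44 in mTKO replicates 1 to 5, against 16.82, 17.06, 16.47, 17.05 and 16.51 in ctrl replicates 1 to 5. The highest and the lowest array were both mTKO, replicates 4 and 2, and the difference was -0.18 (SE 0.24, limma adjusted p = 0.940), and -0.41 without mTKO replicate 4. *Lox* encodes lysyl oxidase, which starts the crosslinks of collagen and elastin, and had 9.82, 8.84, 9.09, 10.52 and 9.06 in mTKO replicates 1 to 5, against 9.29, 9.70, 8.79, 9.57 and 10.05 in ctrl replicates 1 to 5. Its groups overlapped, with a difference of -0.01 (SE 0.30, limma adjusted p = 0.997), and -0.28 without mTKO replicate 4.

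The TGF-beta ligands drive matrix synthesis in fibroblasts. *Tgfb1* had 9.20, 8.45, 8.23, 9.08 and 8.72 in mTKO replicates 1 to 5, against 9.09, 8.46, 8.53, 9.25 and 9.03 in ctrl replicates 1 to 5. *Tgfb2* had 9.75, 9.87, 10.12, 10.41 and 10.12 in mTKO replicates 1 to 5, against 10.36, 9.99, 9.41, 10.09 and 10.48 in ctrl replicates 1 to 5. Both genes overlapped between genotypes and had their highest array in ctrl, with differences of -0.14 (SE 0.22) and -0.01 (SE 0.20) and limma adjusted p of 0.955 and 0.996. With mTKO replicate 4 left out the differences were -0.22 for *Tgfb1* and -0.10 for *Tgfb2*. Over the 11 matrix genes the median difference was -0.01, and -0.14 without mTKO replicate 4, with 5 positive and 6 negative members with all arrays.

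**Figure D3:**
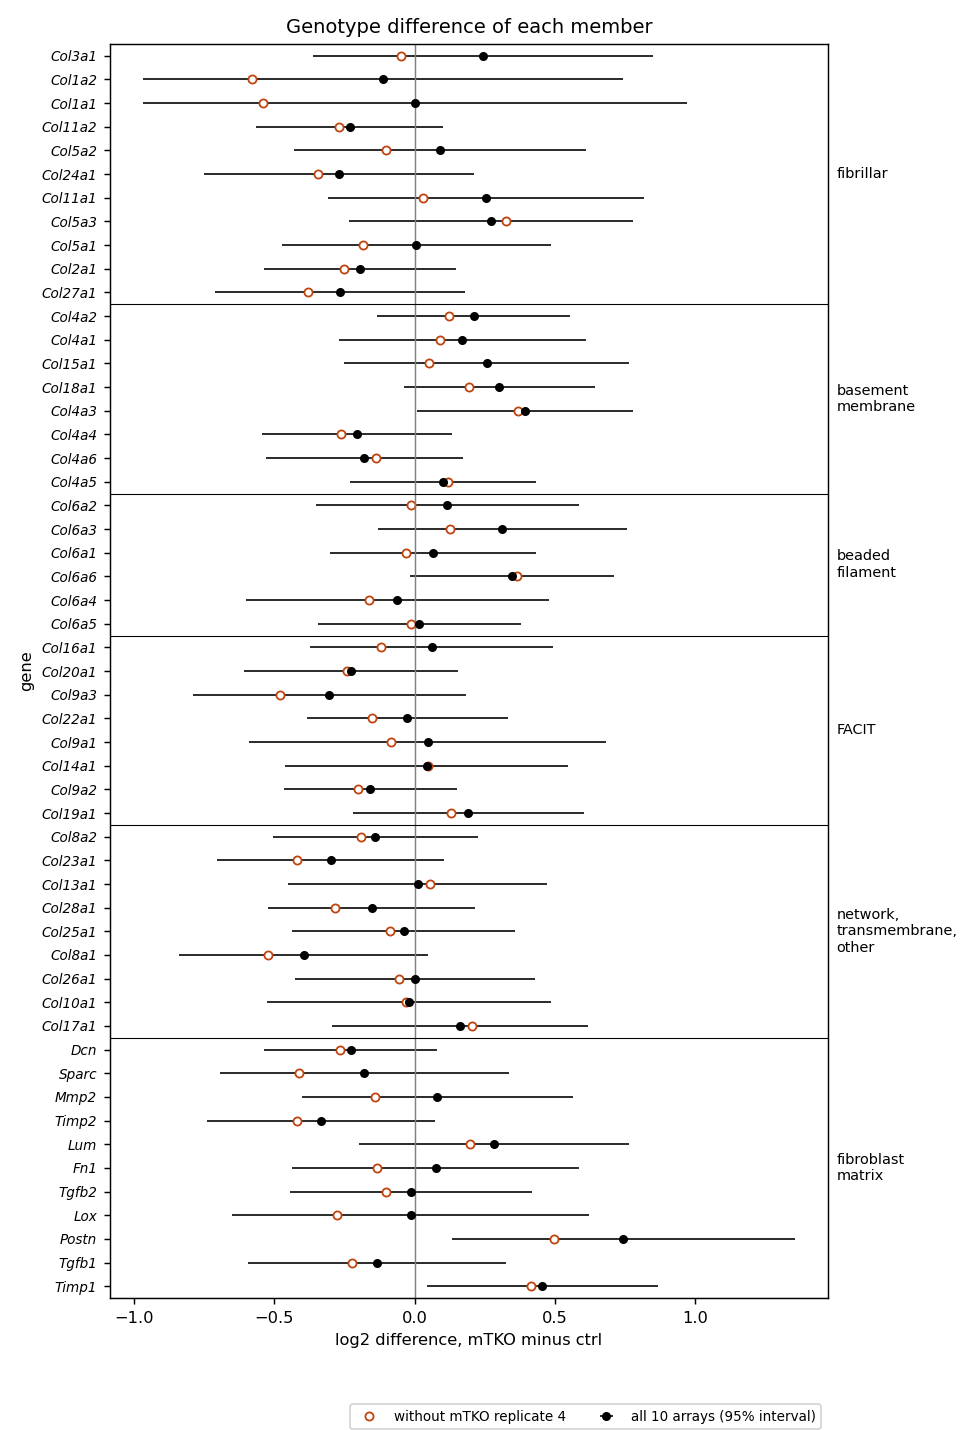
Log2 difference (horizontal axis, mTKO minus ctrl) of each of the 53 members, in rows by class. Filled points with lines give the difference over all 10 arrays with its 95% interval from limma, and open circles the difference without mTKO replicate 4. The intervals of *Postn*, *Timp1* and *Col4a3* lie above 0, and most open circles of fibrillar and matrix genes lie left of the filled points.

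Leaving out mTKO replicate 4 also changed which members were past an unadjusted p under 0.05. That array was chosen for its high values in the members, so the shares of members and of all probe sets are not on equal terms. With it left out, 0 members were higher, where 2.93% of all probe sets were, and 5 of 53 were lower, where 3.01% of all probe sets were. These were *Col1a2* and *Sparc*, given above, and *Col8a1*, *Col9a3* and *Col23a1*, which are named after their values were seen. *Col8a1*, a network collagen, averaged 5.34 ± 0.43 in mTKO and 5.73 ± 0.28 in ctrl (SD, n = 5 each), a difference of -0.40 with all arrays and -0.52 without mTKO replicate 4. *Col9a3* and *Col23a1* had differences of -0.30 each with all arrays, and of -0.48 and -0.42 without mTKO replicate 4. After adjustment over all probe sets, 0 of the 5 passed in limma (adjusted p between 0.802 and 0.829).

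Chains of 1 trimer and genes of 1 cell type were compared across the 10 arrays in 8 pairs, each with a permutation test adjusted over the 8. *Col1a1* and *Col1a2* moved together, with Pearson r = 0.948 (permutation adjusted p = 0.0016) and Spearman rho = 0.806 (adjusted p = 0.0595). Within genotypes r was 0.951, and without mTKO replicates 2 and 4, the arrays farthest from the median of *Col1a1*, it was 0.789. For *Col1a1* and *Col3a1*, r was 0.805 (permutation adjusted p = 0.0619) and rho 0.539 (adjusted p = 0.301), and r was 0.387 without mTKO replicates 2 and 4, so this relation rested on those arrays. *Col6a1* and *Col6a2* had r = 0.663 (permutation adjusted p = 0.0789) and rho = 0.644 (adjusted p = 0.198), and r = 0.499 without ctrl replicate 3 and mTKO replicate 2. The head-to-head pair *Col4a1* and *Col4a2* had r = 0.516 (permutation adjusted p = 0.201) and rho = 0.358 (adjusted p = 0.515), and r = 0.649 without ctrl replicate 3 and mTKO replicate 1. *Col5a1* with *Col5a2*, *Col6a1* with *Col6a3* and *Dcn* with *Lum* had r of 0.475, 0.254 and 0.223 and rho of 0.267, -0.182 and 0.277, with permutation adjusted p of 0.220 or above. Within genotypes r was 0.477, 0.217 and 0.656 for these pairs, and without the 2 arrays farthest from the median of the first gene it was -0.38, 0.39 and -0.14.

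**Figure D4:**
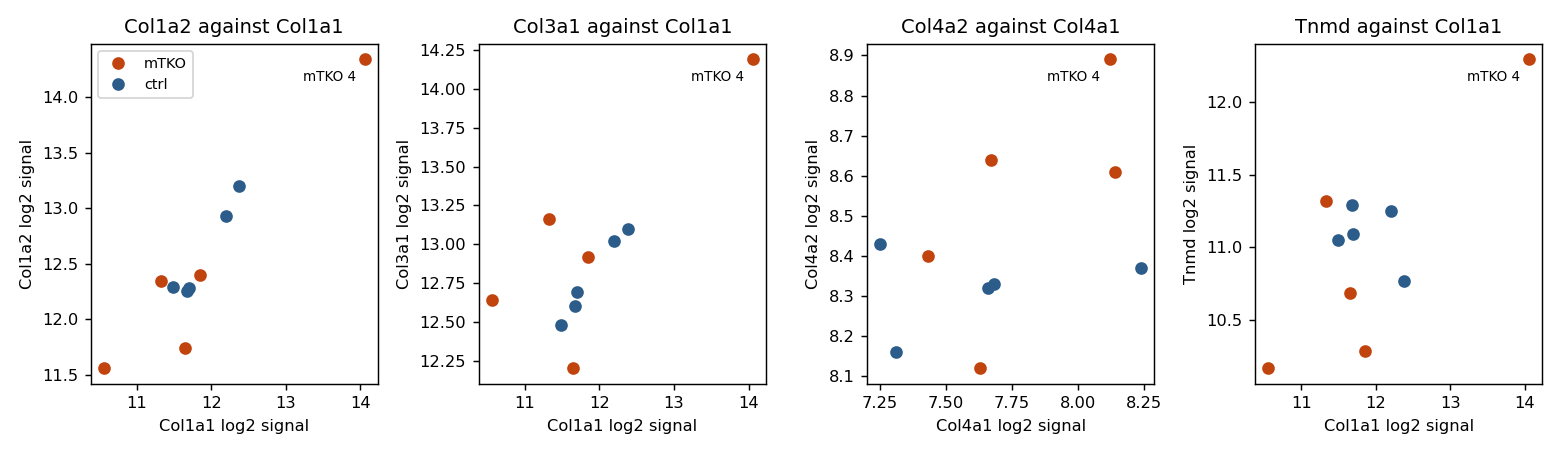
Log2 signal of pairs of genes in the 10 arrays (points, mTKO orange and ctrl blue), with *Col1a1* or *Col4a1* on the horizontal axis and *Col1a2*, *Col3a1*, *Col4a2* or *Tnmd* on the vertical axis. Over the arrays r is 0.948, 0.805, 0.516 and 0.750 in the panels from left to right, and mTKO replicate 4 is at the upper right in each.

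Type I collagen is also the main product of tendon cells, and the mean of the markers of these cells was highest in mTKO replicate 4. The same array had the highest mean of the progenitor markers, of the satellite cell markers and of each pathway list given below. *Tnmd* (tenomodulin), a tendon marker, had 11.32, 10.17, 10.29, 12.29 and 10.69 in mTKO replicates 1 to 5, against 11.09, 11.25, 11.05, 10.77 and 11.29 in ctrl replicates 1 to 5. It was highest in mTKO replicate 4 and lowest in mTKO replicate 2, as *Col1a1* was. Across the 10 arrays, *Col1a1* and *Tnmd* had r = 0.750 (permutation adjusted p = 0.0619) and rho = 0.309 (adjusted p = 0.515), and r = -0.27 without mTKO replicates 2 and 4, so the relation rested on those arrays. The mean of the 10 tendon markers, all of them measured, lay between 9.04 (replicate 2) and 10.20 (replicate 4) in mTKO and between 9.25 and 9.87 in ctrl. mTKO replicate 4 was the highest array for 6 of the 10, and each of the 10 had a mean signal of 5.51 or more. The part of tendon cells in the collagen values was not tested. *Kera* (keratocan) had the smallest p of these markers, at 12.09, 11.38, 11.75, 13.07 and 11.61 in mTKO replicates 1 to 5, against 12.28, 12.77, 12.92, 12.43 and 13.24 in ctrl replicates 1 to 5. All mTKO arrays but replicate 4 were below every ctrl array, and the difference was -0.75 (SE 0.28, limma adjusted p = 0.762). *Fmod*, fibromodulin, averaged 14.17 in mTKO and 14.59 in ctrl (limma adjusted p = 0.849). Of the 10, 1 was lower at an unadjusted p under 0.05, where 3.26% of all probe sets were lower, and the median difference was -0.23.

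Markers of fibro-adipogenic progenitors, the fibroblast-like cells between fibers, had 10 of 12 genes measured, 5 positive and 5 negative, with a median difference of -0.01. Their mean lay between 9.47 and 9.87 in mTKO arrays and between 9.59 and 9.85 in ctrl arrays. The highest mean was that of mTKO replicate 4, which was the highest array for 5 of the 10 genes, and the part of these cells in the collagen values was not tested. *Osr1*, a transcription factor of these cells, had 7.13, 7.15, 7.37, 6.76 and 6.98 in mTKO replicates 1 to 5, against 8.26, 7.55, 7.61, 7.47 and 7.45 in ctrl replicates 1 to 5. Every mTKO array was below every ctrl array, with a difference of -0.59 (SE 0.18), and limma did not call it (adjusted p = 0.677). *Pi16*, a marker of an adventitial fibroblast subset, averaged 8.20 in mTKO and 7.83 in ctrl (limma adjusted p = 0.832), and *Gsn*, gelsolin, 15.65 in mTKO and 15.82 in ctrl (adjusted p = 0.910).

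The enzymes that make collagen mature had 25 of 28 listed genes measured, 12 positive and 12 negative, with a median of 0.00. Of the 25, 1 gene was lower at an unadjusted p under 0.05, where 3.26% of all probe sets were lower. That gene was *P4ha2*, a prolyl 4-hydroxylase subunit needed for a stable helix, at 8.75 in mTKO and 9.16 in ctrl (difference -0.41, SE 0.18, limma adjusted p = 0.783). *P3h2*, a prolyl 3-hydroxylase, had a difference of -0.45 (adjusted p = 0.786), and *Mia3*, which loads collagen into export vesicles, of -0.04 (adjusted p = 0.982). Of 22 measured proteoglycans and fibril-associated proteins of 25 listed, 7 were positive and 15 negative. *Fbn2* (fibrillin-2, a microfibril protein) had a difference of -0.57 (SE 0.17, adjusted p = 0.677), its mTKO arrays all lying below its ctrl arrays, and *Fbln1* (fibulin-1) one of -0.53 (adjusted p = 0.726). *Ogn*, osteoglycin, averaged 15.38 in mTKO and 15.44 in ctrl.

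The laminins and their receptors, the basement membrane network beside type IV collagen, had 14 of 15 genes measured and a median of 0.08. *Lamb1*, the laminin beta 1 chain, had 9.44, 9.57, 9.58, 10.49 and 9.21 in mTKO replicates 1 to 5, against 8.60, 9.15, 9.57, 9.26 and 8.75 in ctrl replicates 1 to 5. ctrl replicates 3 and 4 overlapped with the mTKO arrays, and the difference was 0.59 (SE 0.24, unadjusted p = 0.0251, adjusted p = 0.768 in limma). *Lama3* had a difference of -0.57 (adjusted p = 0.790) and *Dag1*, dystroglycan, of 0.11 (adjusted p = 0.947). mTKO replicate 4 was the highest array for 11 of these 14 genes, for 12 of the 22 proteoglycans and fibril-associated proteins and for 10 of the 25 enzymes above. In the lists that follow it was the highest for 4 of 17 proteases and inhibitors, 2 of 6 collagen receptors and 1 of 18 genes of TGF-beta signalling. The mean of the last list was 9.03 in that array and at most 9.02 in ctrl.

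Of 17 measured matrix proteases and inhibitors of 19 listed, *Timp4* had the smallest p. This inhibitor, abundant in striated muscle, had 11.65, 11.56, 11.51, 11.16 and 11.75 in mTKO replicates 1 to 5, against 12.59, 11.98, 12.14, 12.66 and 11.71 in ctrl replicates 1 to 5. mTKO replicate 5 overlapped with ctrl replicate 5 alone, and the difference was -0.69 (SE 0.20, unadjusted p = 0.00302, adjusted p = 0.661 in limma). *Mmp11*, stromelysin-3, had a difference of -0.33 (adjusted p = 0.847). The 6 measured collagen receptors of 8 listed had a median of 0.02, with *Itgb1*, the integrin beta 1 subunit, at 14.65 in mTKO and 14.62 in ctrl. *Mrc2*, which takes up collagen fragments, had a difference of 0.27 (limma adjusted p = 0.853), and *Ddr1*, a receptor kinase, of 0.17 (adjusted p = 0.930). *Ddr1* and *Mmp11* were dim, with mean signals of 5.74 and 4.89 over all arrays. Among 18 measured genes of TGF-beta signalling of 20 listed, 6 were positive and 12 negative with a median of -0.12. Of the 18, 0 passed an unadjusted p under 0.05, where 3.10% of all probe sets were higher and 3.26% lower. *Smad2*, a signal transducer of the pathway, had a difference of -0.40 (limma adjusted p = 0.785), *Tgfb3*, the third ligand, -0.29 (adjusted p = 0.840), and *Ccn1*, a matricellular response gene, -0.18 (adjusted p = 0.945). In each of these pathway lists 0 genes passed the adjusted test.

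Markers of other cells in whole muscle were also compared, with 0 genes past the adjusted test in limma. The mean of the 9 endothelial markers measured lay between 9.77 and 10.41 in mTKO arrays and between 9.86 and 10.23 in ctrl arrays, with 7 positive, 2 negative and a median difference of 0.09. *Tie1* had a difference of -0.40 (limma adjusted p = 0.781), *Cldn5* of 0.56 (adjusted p = 0.819) and *Cdh5* of 0.04 (adjusted p = 0.983). The 10 smooth muscle and pericyte markers had a median of -0.11, with *Tagln* at -0.48 and *Myh11* at -0.38 (adjusted p = 0.783 each) and *Rgs5* at -0.10 (adjusted p = 0.957). The 9 macrophage markers measured lay between 6.53 and 7.22 in mTKO and between 6.50 and 7.18 in ctrl, with *Adgre1* at -0.54 (adjusted p = 0.763) and *Mrc1* at 0.44 (adjusted p = 0.783). The 6 adipocyte markers measured varied most, between 6.14 and 8.24 in mTKO and between 6.54 and 8.61 in ctrl. Of these, 1 was positive and 5 negative, with a median of -0.44, and *Lep* had a difference of -0.46 (limma adjusted p = 0.768) and *Fabp4* of 0.22 (adjusted p = 0.860). The mean of the 8 satellite cell markers lay between 8.06 and 8.405 (replicate 4) in mTKO and between 8.03 and 8.18 in ctrl. Of these 8, *Pax7* had a difference of 0.47 (limma adjusted p = 0.759), *Myf5* of 0.37 (adjusted p = 0.814) and *Des* of 0.01 (adjusted p = 0.995). Of the 5 Schwann cell markers measured, *Sox10* had a difference of 0.27 (limma adjusted p = 0.876), *S100b* of 0.13 (adjusted p = 0.945) and *Pmp22* of 0.05 (adjusted p = 0.988). Among the myofibre markers, *Actn3* was at -0.23 (adjusted p = 0.854), *Pvalb* at -0.10 (adjusted p = 0.940) and *Acta1* at -0.03 (adjusted p = 0.985). The part of these cells in the values of the matrix genes was not tested. *Lep*, *Pax7*, *Sox10* and *S100b* were dim, with mean signals of 4.42, 4.91, 5.01 and 4.73 over all arrays. *Des*, *Fabp4* and *Pmp22* were bright, at 16.89, 15.0 and 13.78, and whether their signal came from the cells they are listed for was not tested.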

How the data were processed

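RNA of GTN muscle from 5 mTKO and 5 ctrl mice was measured on Clariom S mouse arrays (Affymetrix), 1 mouse each. The authors computed log2 signals per probe set with SST-RMA, and the deposited log2 values, which that algorithm has background-corrected, brought to a common distribution and summarized over probes, were used as they stand. The submitters' processing notes name RMA and Affymetrix Expression Console 1.4. RMA narrows differences of dim probe sets, and how far this holds for the SST-RMA values used here was not tested. For arrays, the number of samples (5 per genotype) limits the precision.

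Genotypes were compared over all 22206 probe sets in R 4.3.3 with limma 3.58.1 (lmFit, eBayes, 7.53 prior degrees of freedom), with Benjamini-Hochberg adjustment and a threshold of 0.05. Members had the brightest probe set of their symbol. The members and lists were chosen with earlier results of these data known. Values per array are given for members with an unadjusted p under 0.05 or without overlap, the brightest member of each class, the matrix genes and the main chains of types I, III, IV and VI; of other lists, the 2 genes with the smallest p and the brightest are named. Two-sided exact permutation tests used all assignments of 5 and 5 arrays, and correlations 100000 permutations (scipy 1.17.1). Alternatives were a trended, robust eBayes, weights per array, cyclic loess, quantile or median scaling, a filter at a mean signal of 6, averaging the probe sets of a gene, the replicate number as a block, the methods' t-test and leaving out each array. Averaging could not change the signals of the members, which had 1 probe set each. The limma fit and the methods' t-test were tested on simulated data, and the other steps were not. Promoter sequences came from RefSeq (GRCm38.p6), and figures from matplotlib 3.10.9.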

Additional observations from a re-analysis of the deposited data

Results flagged for a closer look

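Of 106 groups of 5 arrays (53 members in each genotype), 7 (6.60%) had 1 array far from the others, with a gap above 0.71 of the group's range by Dixon's test, against 5.48% of the groups over all probe sets. Chance flags about 1 in 20 groups. 3 of the 7 were mTKO replicate 4, which stood high in this way for 5.66% of the members and for 0.851% of all probe sets. In *Fn1* it was at 12.21, with the next mTKO array at 11.35, in *Col6a3* at 10.96, with the next at 10.15, and in *Col27a1* at 5.08, with the next at 4.58. *Col14a1*, a FACIT collagen, had mTKO replicate 2 at 6.33, with the next mTKO array at 5.46. *Col4a6*, a dim type IV chain, had mTKO replicate 5 at 4.81, with the next mTKO array at 4.40. Among ctrl arrays, *Col22a1*, a chain found at tissue junctions such as that of muscle and tendon, had replicate 5 at 6.40, with the next at 6.14, and *Col6a6* had replicate 4 at 5.72, with the next at 5.28. *Col27a1*, *Col14a1*, *Col4a6*, *Col22a1* and *Col6a6* are named after their values were seen.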

How the results depend on the processing

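The count of members past the adjusted test was 0 under every alternative run, the methods' t-test with Benjamini-Hochberg adjustment included, and with a fold change above 1.2 in place of 2 the methods' thresholds still took 0. At an unadjusted p under 0.05, leaving out 1 array at a time gave between 0 (without mTKO replicate 4) and 4 higher members and between 0 and 5 (without mTKO replicate 4) lower members; it was 1 higher without ctrl replicate 3, ctrl replicate 5 or mTKO replicate 1. Trend and robust eBayes gave 1 lower member. Over all probe sets, 2.93% were higher and 3.01% lower without mTKO replicate 4. No such share was taken for the other alternatives, so their counts cannot be set against all probe sets. Over the alternatives the highest unadjusted limma p was 0.0648 for *Postn*, 0.0953 for *Timp1* and 0.143 for *Col4a3*. The class medians moved by less than the spread between arrays in each setting. That spread was taken with mTKO replicate 4 included, which widens it, so it is a lenient measure for leaving that array out. For the fibrillar collagens the spread was 0.36, and the median was 0.00 with that array and -0.25 without it. Without mTKO replicate 4, 10 of the 53 members changed sign, the most of any setting; none of these values had passed a test. Arrays with the same replicate number deviated together only weakly (correlations of 0.04, 0.16, -0.04, 0.02 and 0.06 for numbers 1 to 5), and 2 of 5 mTKO arrays correlated best with their own number. With 5 numbers, these values cannot decide whether the numbers pair the mice. With the replicate number as a block, 3 members were higher and 0 lower at an unadjusted p under 0.05, as without it, and 0 passed the adjusted test. Signals under about 6 limit what can be read from 20 of the 53 members.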

Other observations

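A few members outside the rule for named genes are given here because of their values. *Col18a1*, whose end fragment is endostatin, had 6.89, 6.66, 6.85, 7.36 and 6.89 in mTKO replicates 1 to 5, against 6.58, 6.48, 6.82, 6.75 and 6.51 in ctrl replicates 1 to 5. Every mTKO array but replicate 2 was above every ctrl array, and the difference was 0.30 (SE 0.16, limma adjusted p = 0.825, two-sided exact permutation p = 0.0476), and 0.19 without mTKO replicate 4. *Col6a6*, a dim type VI chain, had 6.07, 5.82, 5.71, 5.63 and 5.29 in mTKO replicates 1 to 5, against 5.28, 5.28, 5.28, 5.72 and 5.23 in ctrl replicates 1 to 5. The difference was 0.35 (SE 0.17, limma adjusted p = 0.810), with ctrl replicate 4 inside the mTKO range, and it was 0.36 without mTKO replicate 4.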
